A study of Homo sapiens with 10 samples.

Results

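The nuclear genes of oxidative phosphorylation were examined for RNA polymerase II and for the histone mark H3K4me1 at their ends. They were chosen by name: RefSeq protein-coding genes called NDUFA, NDUFB, NDUFC, NDUFS or NDUFV with a number, SDHA to SDHD, any UQCR gene, COX4 to COX8 genes, and ATP5F, ATP5M or ATP5P genes. This gave 86 genes of the 19974 coding genes in the annotation, of which 37 encode subunits of complex I, 4 of complex II, 9 of complex III, 17 of complex IV and 19 of complex V. NDUFC2-KCTD14 and ATP5MF-PTCD1 are readthrough genes that share a start with NDUFC2 and ATP5MF. NDUFA4 and NDUFA4L2 carry the symbols COXFA4 and COXFA4L2 in this annotation and so fell outside the rule.

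All libraries came from hTERT-RPE1, a telomerase-immortalised line of human retinal pigment epithelium, labelled wild type and with no treatment given. CUT&Tag, in which an antibody brings a transposase to its target so that nearby DNA is cut and tagged, was done with 6 libraries for RNA polymerase II phosphorylated on serine 5 (Pol II hereafter) and 4 for H3K4me1. The authors merged the libraries into 2 peak lists per target, labelled R1 and R2 and called list 1 and list 2 here, where Pol II had 49351 and 47180 peaks and H3K4me1 had 123666 and 124465. With 1 condition and 2 lists per target no test between groups was possible, so both values are given and the gap between the lists is the only measure of error. The labels do not say whether R1 and R2 were separate cultures. Of 10 genes of pigment epithelium function, picked after the data were seen, 7 lacked a Pol II peak of either list near an end, RPE65 (the retinoid isomerase) and RLBP1 among them, where 48.8% of all coding genes did. RDH5 and PMEL had Pol II in both lists, BEST1 had it in list 2 alone, and all 10 had H3K4me1 of both lists, as did 78.7% of all coding genes. Whether another gene lay nearer to these peaks was not examined.

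Oxidative phosphorylation passes electrons from NADH (complex I) or succinate (complex II) through complex III to oxygen at complex IV, and the proton gradient so built drives ATP synthase, complex V. Most subunits are encoded in the nucleus, and the core of the membrane domains is encoded in mitochondrial DNA. Several complex IV subunits exist as isoforms for which other genes are used in heart, lung or testis. Phosphorylation of Pol II on serine 5 marks polymerase that has begun transcription near a gene start, and H3K4me1 is found at enhancers and beside active starts. NRF1, GABP (an ETS factor with the DNA-binding subunit GABPA), YY1 and ERRA are factors known to bind promoters of these genes.

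The promoters below were chosen, after values were seen, because the results turn on them: starts of 4 genes with strong Pol II in 3 complexes, the SDHD start with 3 kinds of motif match, and isoform or start pairs of which only 1 had Pol II. Each is RefSeq sequence of GRCh38.p14, read 5′ to 3′ on the strand of the gene, from 150 bases before the listed start to 30 bases from it on. Capitals mark matches, on either strand, to the motifs described later.
UQCRC2 (chr16:21953211-21953390, plus strand): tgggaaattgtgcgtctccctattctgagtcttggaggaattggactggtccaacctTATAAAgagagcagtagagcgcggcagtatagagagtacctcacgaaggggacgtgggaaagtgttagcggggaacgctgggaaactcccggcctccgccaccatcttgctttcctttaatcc
NDUFB4 (chr3:120596186-120596365, plus strand): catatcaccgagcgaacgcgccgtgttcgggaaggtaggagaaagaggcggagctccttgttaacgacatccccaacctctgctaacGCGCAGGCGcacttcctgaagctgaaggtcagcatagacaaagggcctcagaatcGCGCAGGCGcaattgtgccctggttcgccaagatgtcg
ATP5MC1 (chr17:48892637-48892816, plus strand): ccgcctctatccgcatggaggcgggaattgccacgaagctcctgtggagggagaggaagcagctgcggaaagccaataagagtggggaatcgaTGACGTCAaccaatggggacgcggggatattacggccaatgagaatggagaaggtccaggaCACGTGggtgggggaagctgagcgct
ATP5PF inner start (chr21:25734875-25735054, minus strand): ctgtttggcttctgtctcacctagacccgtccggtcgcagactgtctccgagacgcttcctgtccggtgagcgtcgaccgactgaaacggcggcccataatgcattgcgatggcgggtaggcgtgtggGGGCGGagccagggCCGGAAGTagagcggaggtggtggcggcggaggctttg
ATP5PF outer start (chr21:25735025-25735204, minus strand): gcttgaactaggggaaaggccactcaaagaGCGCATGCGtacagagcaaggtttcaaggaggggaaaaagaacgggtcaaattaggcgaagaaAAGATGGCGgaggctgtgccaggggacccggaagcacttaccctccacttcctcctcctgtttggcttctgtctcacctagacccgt
SDHD (chr11:112086723-112086902, plus strand): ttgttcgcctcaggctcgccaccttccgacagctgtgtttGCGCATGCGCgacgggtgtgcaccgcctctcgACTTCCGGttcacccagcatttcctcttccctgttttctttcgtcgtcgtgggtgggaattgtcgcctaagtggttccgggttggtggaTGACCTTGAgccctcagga
COX8A (chr11:63974470-63974649, plus strand): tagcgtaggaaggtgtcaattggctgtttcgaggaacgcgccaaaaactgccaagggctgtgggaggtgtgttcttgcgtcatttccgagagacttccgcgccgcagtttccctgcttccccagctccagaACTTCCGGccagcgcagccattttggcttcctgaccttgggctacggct
COX8C (chr14:93347032-93347211, plus strand): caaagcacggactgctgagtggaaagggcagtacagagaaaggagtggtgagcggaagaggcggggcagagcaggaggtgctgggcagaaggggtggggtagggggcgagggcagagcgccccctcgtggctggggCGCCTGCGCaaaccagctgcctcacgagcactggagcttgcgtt
COX7A2 inner start (chr6:75243772-75243951, minus strand): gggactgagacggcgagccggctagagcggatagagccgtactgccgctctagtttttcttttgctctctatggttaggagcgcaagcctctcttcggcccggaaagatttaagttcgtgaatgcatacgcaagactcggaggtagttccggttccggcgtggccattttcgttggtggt
COX7A2 outer start (chr6:75250269-75250448, minus strand): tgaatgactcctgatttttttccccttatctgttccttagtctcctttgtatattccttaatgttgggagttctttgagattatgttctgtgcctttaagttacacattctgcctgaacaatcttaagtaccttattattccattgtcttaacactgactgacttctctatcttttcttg

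An end of a gene was taken to bear Pol II when a peak of each list lay within 1 kb of that same end. By this rule 56 of the 86 genes (65.1%) bore Pol II, beside 39.4% of all coding genes. A peak of 1 list alone was found at 14 genes, where the share over all coding genes was 11.9%, and 16 had a peak of neither list, where it was 48.8%. Taken singly, list 1 had a peak at 60 of the 86 genes, beside 43.7% of all coding genes, and list 2 at 66, beside 47.4%. The 56 genes held 54 distinct peaks in each list, because each readthrough gene shared the peak of its partner. The farthest of the 56 was ATP5MG, where the peaks of both lists came within 495 bp of an end, and the nearest gene outside the window was NDUFC1 at 1144 bp, followed by SDHA at 1267 bp.

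H3K4me1 peaks of both lists lay within 5 kb of an end at 82 genes (95.3%), beside 78.7% of all coding genes. Both targets were present at 56 genes (all coding genes, 38.8%), H3K4me1 without Pol II at 26 (39.9%) and neither target at 4 (20.8%). Pol II without H3K4me1 was found at 0 of the 86, where it was 0.556% over all coding genes. The 4 genes with neither target were the complex IV genes COX7A1, COX7A2, COX7B2 and COX8C.

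**Figure D1:**
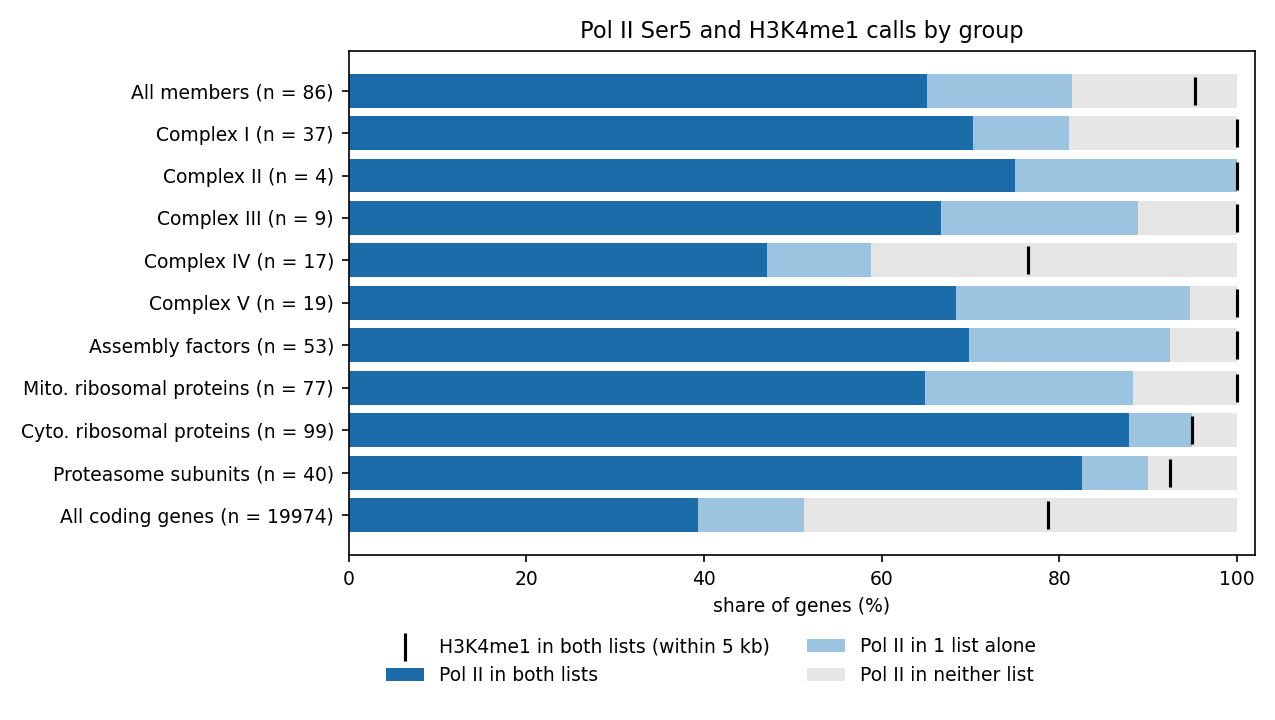
Share of genes (x axis, %) with Pol II peaks of both lists, of 1 list alone or of neither within 1 kb of an end (bars), and with H3K4me1 of both lists within 5 kb (black marks). Complex IV, with 8 of 17 genes, has the shortest dark bar of the 5 complexes, and all coding genes stand at 39.4%.

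The height of a peak was read from the fold enrichment that the authors deposited, and its rank from the percentile of its deposited −log10 q value among all nuclear peaks of the same list. Over the 56 genes with Pol II the median fold was 6.03 in list 1 and 6.16 in list 2, beside 5.97 and 5.35 over the 7866 coding genes with Pol II. The median percentile was 68.6, beside 71.3. A mean percentile of 90 or more was reached by 7 of the 56 (12.5%), beside 18.3% of all coding genes with Pol II. The peaks were thus present at a larger share of these genes than of coding genes at large. Their median rank was slightly lower by −log10 q, but by fold it was higher, with a median percentile of 70.8 beside 64.8. Ranked among the 7866 genes, ATP5F1B was 18, NDUFA11 was 60 and UQCRC2 was 170.

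**Figure D2:**
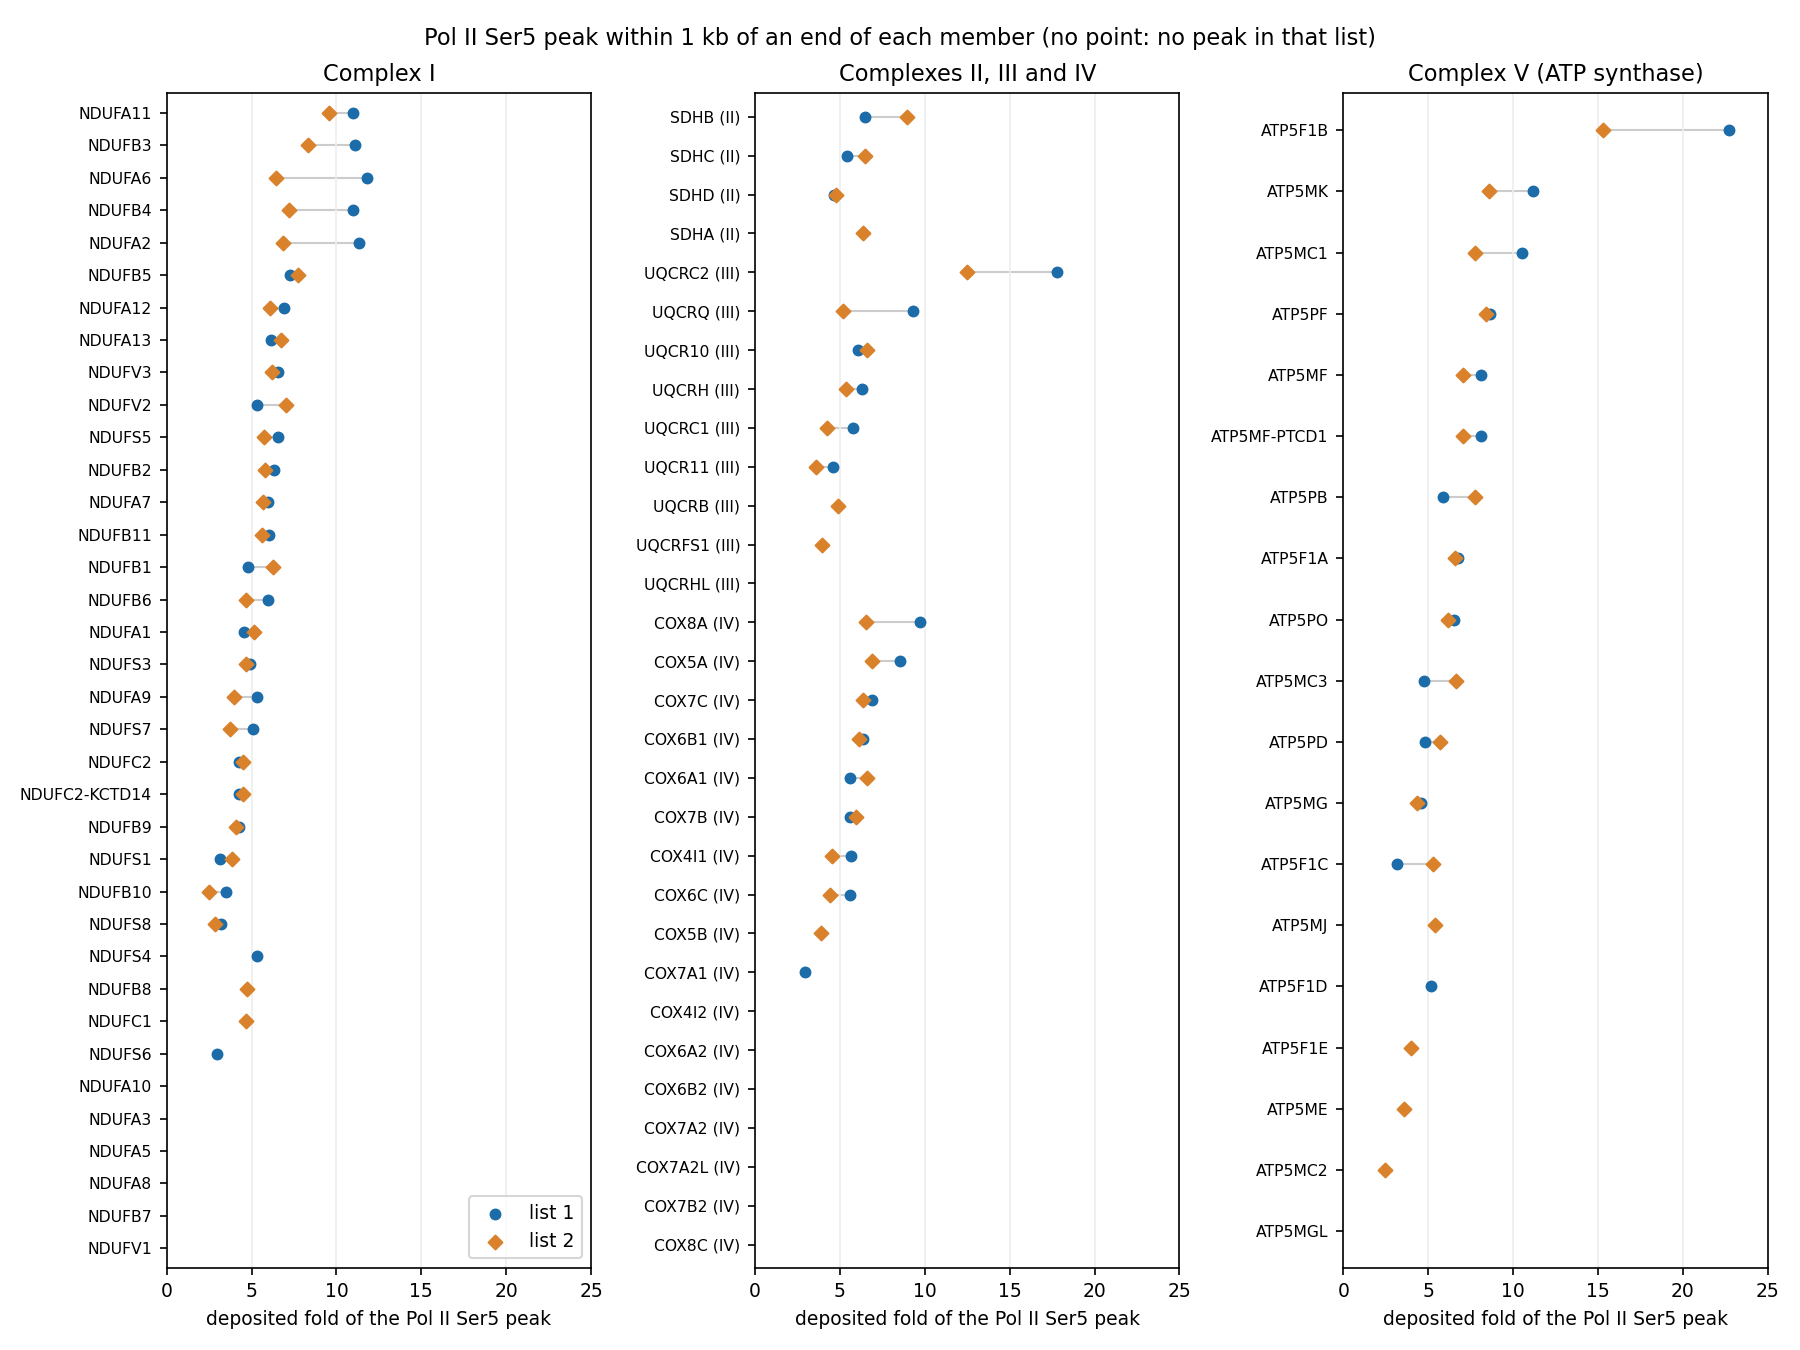
Deposited fold of the Pol II peak within 1 kb of an end of each gene reported singly (x axis), by complex, with circles for list 1 and diamonds for list 2. The peak with the highest −log10 q is drawn. Where both lists had peaks at the same end, the end with the highest mean percentile of −log10 q was used for both. A missing point means no peak in that list. ATP5F1B (22.7 and 15.3) and UQCRC2 (17.8 and 12.5) stand to the right of the other genes in both lists.

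Complex I, the NADH dehydrogenase that feeds most electrons into the chain, had Pol II at 26 of its 37 genes (70.3%, beside 39.4% of all coding genes), 1 list alone at 4 (beside 11.9%) and neither at 7 (beside 48.8%). H3K4me1 was near all 37 (beside 78.7%). Folds among the 26 ran from 3.16 to 11.8 in list 1 and from 2.52 to 9.56 in list 2. The 7 nuclear core subunits, which carry the flavin, the iron-sulfur clusters and the site of quinone reduction, bore Pol II at 5 (71.4%), and the 30 accessory subunits, which stabilise the complex, at 21 (70%), both beside 39.4%. The median fold was 4.91 and 3.82 over the 5 core genes and 6.17 and 5.79 over the 21 accessory genes in lists 1 and 2.

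Among the core genes NDUFV2, an iron-sulfur subunit of the NADH-oxidising arm, had folds of 5.35 and 7.01. NDUFS3, a subunit of the arm that leads to quinone, had 4.91 and 4.68, and NDUFS1, the large iron-sulfur subunit, 3.16 and 3.82. NDUFS8 had 3.20 and 2.82. Apart from NDUFV2, the core genes were below the complex I median of 5.70 in list 2. NDUFS7 had 5.10 and 3.71, with summits 13 and 8 bp from the end of the tRNA gene TRN-GTT2-6 and 258 and 279 bp from its own start. NDUFV1, which binds NADH and flavin, had no Pol II peak within 1 kb and had H3K4me1 within 1 kb at folds of 9.55 and 7.74.

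The 5 complex I genes with the highest percentile were all accessory. NDUFA11 (chr19:5891229-5903790), a membrane subunit, had folds of 11.0 and 9.56 and −log10 q values of 67.7 and 85.1. NDUFA2 had 11.3 and 6.84, and NDUFB3 11.1 and 8.31. Each was higher in list 1, as were NDUFA6, which binds the acyl carrier protein of the complex, at 11.8 and 6.46, and NDUFB4 at 11.0 and 7.18. NDUFA6 and NDUFB4 had their summits within 104 bp of their own start in both lists. The summit of NDUFA11 was instead 649 and 651 bp from its start and 433 and 431 bp from VMAC, and that of NDUFA2 was 64 and 36 bp from its start and 38 and 66 bp from TMCO6.

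Accessory genes of complex I also included incomplete calls. NDUFB8 and NDUFC1 had a peak of list 2 alone, at folds of 4.73 and 4.66. NDUFS4 and NDUFS6, accessory subunits of the NADH-oxidising arm, had a peak of list 1 alone, at 5.32 and 2.99. NDUFA3, NDUFA5, NDUFA8, NDUFA10 and NDUFB7 had a peak of neither list, yet each had H3K4me1 of both lists within 5 kb, from 5.53 at NDUFA10 to 9.30 at NDUFA8 in list 1 and from 4.88 at NDUFA10 to 9.41 at NDUFA3 in list 2.

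Complex II, succinate dehydrogenase, is the only one of the 5 complexes with no subunit from mitochondrial DNA, and 3 of its 4 genes bore Pol II (75%, beside 39.4% of all coding genes). SDHB (chr1:17018722-17054032), the iron-sulfur subunit, had folds of 6.51 and 8.97. SDHC and SDHD, the membrane anchors, had 5.43 and 6.46, and 4.65 and 4.75. SDHA, the flavoprotein that oxidises succinate, had a peak in list 2 alone, at 6.37. All 4 genes had H3K4me1, with the highest fold at SDHB (9.69 and 10.8). SDHA has near-identical copies elsewhere in the genome (SDHAP1 and SDHAP4 both had Pol II in both lists), and how reads that fit several places were treated is not stated, so the SDHA value is uncertain.

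Complex III, the cytochrome bc1 complex, had Pol II at 6 of 9 genes (66.7%, beside 39.4% of all coding genes), and values were spread widely. UQCRC2 (chr16:21953361-21983660), a core protein of the matrix side, had folds of 17.8 and 12.5. UQCRQ, a small subunit, had 9.29 and 5.18, and UQCRH, the hinge protein, 6.28 and 5.34. UQCR10 had 6.05 and 6.57, close to the median of all 56 genes. UQCRC1, the other core protein, was called through its last end, at 5.79 and 4.27, while at its start a peak was found in list 2 alone at 8.95. UQCR11 had 4.57 and 3.62. The Rieske iron-sulfur protein UQCRFS1 and the small subunit UQCRB had a peak in list 2 alone, at 3.96 and 4.92. UQCRHL, a retrocopy of UQCRH, had none.

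Complex IV, cytochrome c oxidase, had Pol II at 8 of 17 genes (47.1%, beside 39.4% of all coding genes) and H3K4me1 at 13 of 17 (76.5%, beside 78.7%). These were the lowest shares of the 5 complexes and near those of coding genes at large. COX8A (chr11:63974620-63976543) led in percentile, with folds of 9.72 and 6.54. COX5A followed at 8.55 and 6.88, and COX7C had 6.91 and 6.38. These 3 small subunits had a higher fold in list 1. COX7B had 5.59 and 5.94. COX6A1 had 5.60 and 6.60 at its last end and 3.99 and 3.87 at its start. COX6B1 likewise had 6.36 and 6.15 at its last end and 3.67 and 3.91 at its start. COX4I1 (5.63 and 4.56) and COX6C (5.59 and 4.40) were also called, and COX5B had a peak in list 2 alone, at 3.87, beside H3K4me1 of 12.2 and 7.65.

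The genes of complex IV without Pol II were largely isoforms. Over the isoform sets of complexes III, IV and V, broadly used members bore Pol II at 9 of 11 genes (81.8%), and tissue-restricted or related members, retrocopies included, at 0 of 9, beside 39.4% of all coding genes. COX4I1, COX6A1, COX6B1, COX7B and COX8A, the forms used in most tissues, all had Pol II. COX4I2 (lung), COX6A2 (heart and skeletal muscle), COX6B2 (testis), COX7B2 (testis) and COX8C (testis) all had none in either list. COX7A1, the heart and muscle form, had a peak of 2.94 in list 1 alone and no H3K4me1. Leaving out these 6 genes and the retrocopies UQCRHL and ATP5MGL, Pol II was at 56 of the other 78 genes (71.8%), where the share over all coding genes was 39.4%. None of the genes left out was called, so their removal could only raise the share. The 39.4% keeps restricted genes and copies of every kind, so the 71.8% has no like-for-like share beside it.

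H3K4me1 of both lists was near 10 of 11 broad (90.9%) and 6 of 9 restricted or related members (66.7%), beside 78.7% of all coding genes. COX6B2 had H3K4me1 folds of 6.47 and 5.41 within 1 kb of an end, COX4I2 had 2.66 and 3.68 within 5 kb, and COX6A2 had 3.19 and 3.68. The COX8A and COX8C stretches printed above both hold a match: COX8A to the ETS motif and COX8C to the NRF1 motif. COX8C therefore had such a match and no peak of either target.

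For COX7A2, the form used in most tissues, and its relative COX7A2L, which takes part in supercomplexes, the call depended on the start that was used. Neither had a Pol II peak at an end of the gene model, which is the outermost listed start. At an inner listed start, 6497 bp inside the model, COX7A2 had Pol II folds of 6.85 and 8.87 and H3K4me1 folds of 7.46 and 8.59. COX7A2L had 8.23 and 8.74 for Pol II at a start 7740 bp inside. These were among the higher complex IV values. Over 300 bases the outer COX7A2 promoter had 37% G and C bases and the inner one 51.7%, and most of each is printed above. With the inner start COX7A2L is a related member that bore Pol II, so 0 of 9 holds only for gene model ends.

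**Figure D3:**
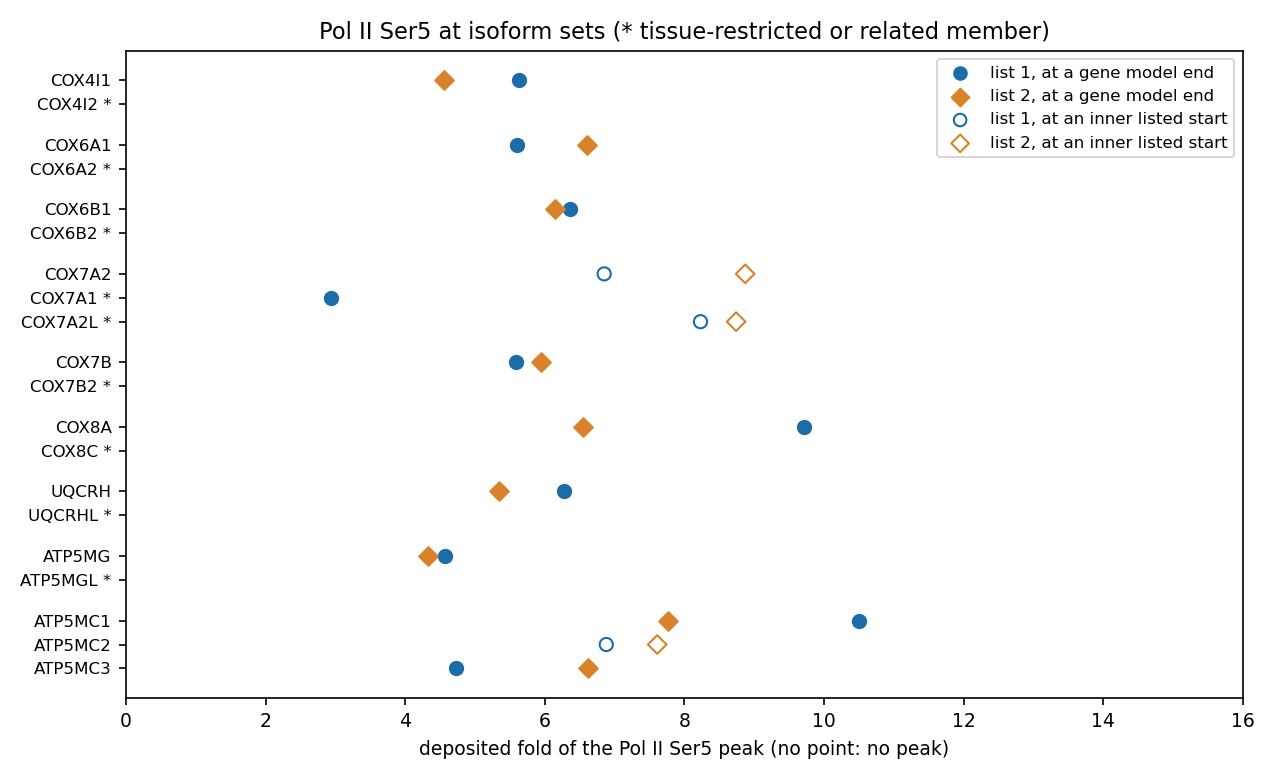
Deposited fold of the Pol II peak (x axis) for each isoform set, with circles for list 1, diamonds for list 2 and filled points for peaks at gene model ends. Open points are peaks at an inner listed start, as for COX7A2 (6.85 and 8.87), and are drawn for ATP5MC2 in place of its list 2 peak of 2.47 at the model end.

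The same held for 3 more genes. NDUFA5 had folds of 5.29 and 9.88 at a start 43833 bp inside its model. ATP5MC2 had 6.88 and 7.61 at a start 5340 bp inside, and NDUFC1 8.48 and 5.91 at a start 1317 bp inside. Counting an end or any listed start, 61 of the 86 genes bore Pol II, beside 42.2% of all coding genes by the same rule. Counting listed starts alone, it was 49 of the 69 genes with a promoter entry (71%), again beside 42.2%. ATP5F1B, SDHC, UQCRB, COX6C and NDUFB5 were among the other 17.

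Complex V, ATP synthase, had Pol II at 13 of 19 genes (68.4%, beside 39.4% of all coding genes), 1 list alone at 5 (beside 11.9%) and neither at 1 (beside 48.8%). ATP5F1B (chr12:56638175-56645984, hg38), the catalytic beta subunit of the F1 head, had folds of 22.7 and 15.3 and −log10 q values of 147.3 and 106.4, the highest of the 86 genes in both lists. ATP5F1A, the alpha subunit, had 6.76 and 6.58, and ATP5F1C, the gamma subunit of the stalk, 3.19 and 5.30. ATP5F1D (delta) had a peak of 5.16 in list 1 alone and ATP5F1E (epsilon) one of 3.96 in list 2 alone. The F1 subunits, those of the stalk included, assemble in a fixed ratio, and their genes ranged from a peak of 1 list to the largest fold of the set. Both head genes named here, ATP5F1A and ATP5F1B, had peaks in both lists.

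The c subunit, which forms the turning ring in the membrane, is encoded by 3 genes with the same mature protein. ATP5MC1 had folds of 10.5 and 7.76. ATP5MC3 had 4.73 and 6.62, and ATP5MC2 had 2.47 in list 2 alone at the model end beside the inner start given above. ATP5MC1 was the highest of the 3 in both lists at model ends. Its promoter, printed above, holds a cAMP response element and an E-box.

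The peripheral stalk, which holds the head still, bore Pol II at all 4 genes. ATP5PF had 8.64 and 8.40, ATP5PB 5.85 and 7.78, ATP5PO 6.50 and 6.17, and ATP5PD 4.83 and 5.72. ATP5PF had the highest fold in both lists. Among small membrane subunits ATP5MK had 11.2 and 8.57 and ATP5MF 8.10 and 7.05. ATP5MK lies on the long arm of chromosome 10, of which hTERT-RPE1 is known to carry an additional piece, as does NDUFB8, which had a peak of 4.73 in list 2 alone. The part of copy number in these values was not tested. ATP5MG had 4.57 and 4.33, and its retrocopy ATP5MGL had none. ATP5ME and ATP5MJ had a peak in list 2 alone, at 3.57 and 5.39.

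Where the summit lay was compared with the start of the gene and with other genes nearby. Over 44 starts of these genes that bore Pol II and had a known strand, the median summit was −47 bp in list 1 and −32 bp in list 2, where minus is before the start. Summits within 300 bp of the start made up 84.1% and 81.8%, beside 63.6% and 64.2% of 6169 such starts of all coding genes. The summit was nearer to the start than to the last end in both lists at 41 of 46 genes with known strand. The exceptions were NDUFB10, NDUFB6, UQCRC1, COX6A1 and COX6B1. NDUFB10 had no peak of either list at its start, and its call came from wide peaks of 758 and 3297 bp. Their summits were 1005 and 1973 bp from its last end, and the list 2 summit was 842 bp from SNORA64, on the side of RPS2.

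A neighbouring gene could claim many of the peaks. Of the 56 genes, 33 had an end at least as near to the summit as any other gene of any kind in both lists, and 38 as any other coding gene. The end of another coding gene lay within 1 kb of the summit in both lists at 25. For these counts no share over all coding genes was computed, so they cannot be set against coding genes at large. Examples of high percentile were NDUFA11 with VMAC, NDUFA2 with TMCO6, ATP5MK with PDCD11 (19 bp in both lists), ATP5PF with GABPA (122 bp in both lists), NDUFB3 with HYCC2 (130 and 80 bp) and UQCRH with LRRC41 (32 and 31 bp). The counts used gene model ends and not inner listed starts. The ATP5PF summit was at −40 bp from its outer listed start in both lists, nearer than GABPA. The neighbour named is the one with the nearest end, which need not be its start. For NDUFA2 the head-to-head partner was IK, with starts 199 bp apart. Where 2 genes begin near 1 peak, Pol II starting in 1 direction and in the other cannot be told apart, because CUT&Tag carries no strand.

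Starts in head-to-head pairs, meaning a coding gene on the other strand that begins within 1 kb upstream, were found at 23 of the 69 genes with a promoter entry (33.3%), beside 12.6% of 15812 coding genes. Pairs included UQCRQ with GDF9 (starts 9 bp apart), ATP5PF with GABPA (68 bp), UQCRH with LRRC41 (82 bp), NDUFS3 with KBTBD4 (104 bp), NDUFA7 with RPS28 (121 bp), COX4I1 with EMC8 (151 bp), ATP5F1A with HAUS1 (158 bp) and NDUFS1 with EEF1B2 (165 bp). The paired genes bore Pol II at a gene end in 18 of 23 (78.3%) and the unpaired in 28 of 46 (60.9%). Over all coding genes the shares were 74.2% and 37.4%. The genes of oxidative phosphorylation counted as unpaired thus stood at a higher share than such genes at large, and the paired ones near that of all paired genes. Strand was known only from promoter entries, so a neighbour without one could not count as a partner. Among those counted as unpaired, the SDHD start lay 117 bp from an end of TIMM8B and that of NDUFS6 27 bp from MRPL36. How many pairs were missed in either set was not tested.

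H3K4me1 within 1 kb of an end was found in both lists at 73 of the 86 genes (84.9%), beside 63.9% of all coding genes. Its median fold there was 6.34 and 5.96, beside 5.63 and 5.24. Of the 56 genes with Pol II, 55 had it within 1 kb (98.2%), beside 94.6% of all coding genes with Pol II. Of the 30 without Pol II of both lists, 18 had it (60%), beside 43.9%. H3K4me1 at the genes with the largest Pol II folds was also high, at 11.1 and 12.4 for ATP5F1B and 10.2 and 10.4 for UQCRC2. COX5B, however, had an H3K4me1 fold of 12.2 in list 1 with Pol II in 1 list alone.

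Around the 44 starts with Pol II, H3K4me1 peaks of both lists covered the base 100 bp before the start at 39 of them (88.6%), beside 78.5% over all coding genes. At 400 bp inside the gene they covered 11.4%, which is 5 starts, beside 22.9%. By single list the H3K4me1 shares there were 40.9% beside 47.8% in list 1 and 13.6% beside 25.3% in list 2. The lists thus differed more from each other than the 2 sets of genes did. For Pol II the shares 100 bp before the start were 65.9% and 60.9%. Coverage by both targets was thus highest just before the start in both sets. At each 100 bp step from 100 to 1100 bp inside, the H3K4me1 share was lower at these genes, as at 1000 bp (6.82% beside 16.5%). Farther inside, the shares were 13.6% and 13.5% at 1200 bp, 6.82% and 12.1% at 1300 bp and 11.4% and 8.49% at 1600 bp. They were 0% and 5.28% at 2200 bp, so the order of the 2 sets changed with distance.

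**Figure D4:**
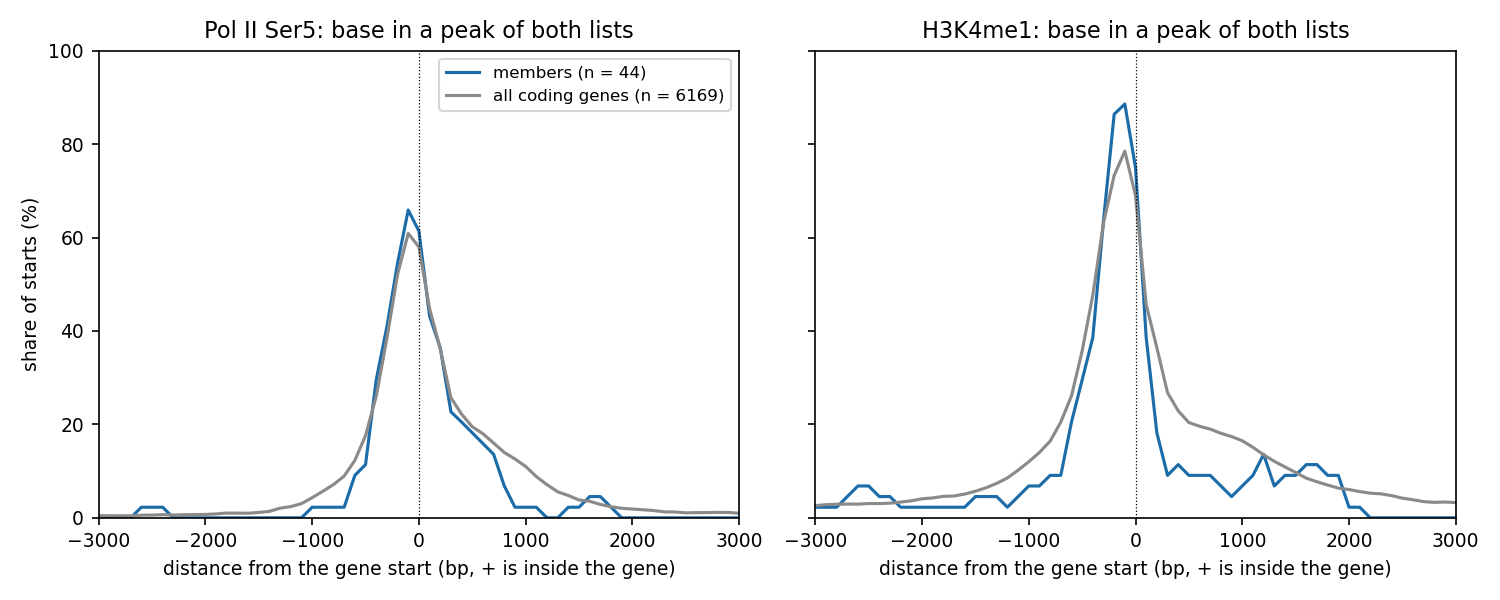
Share of starts (y axis, %) whose base at a given distance from the start (x axis, bp, positive inside the gene) lies in peaks of both lists, for Pol II on the left and H3K4me1 on the right. The line of the 44 starts of oxidative phosphorylation genes peaks at 88.6% for H3K4me1, 100 bp before the start. It is below the line of all coding genes at 400 and 1000 bp inside, above it at 1600 bp and below it at 2200 bp.

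Promoters of 300 bases, 250 before and 50 after each listed start, were searched on both strands for 8 short motifs. The table held 82 promoters for 69 of the 86 genes and 22132 for 15812 coding genes. NRF1 (GCGCANGCG) was matched in 23 of the 82 (28%), beside 9.66% of all. ETS (CCGGAAGT) was matched in 12 (14.6%), beside 5.35%, and YY1 (AAGATGGCG) in 10 (12.2%), beside 2.42%. ERRA (TCAAGGTCA) was matched in 1 promoter, that of SDHD (1.22%, beside 0.244%). The motifs of NRF1, ETS factors and YY1 were thus held by a larger share of these promoters than of coding promoters at large, and 1 match allows no such statement for ERRA. The CRE (TGACGTCA) was matched in 5 (6.1%), beside 2.26%.

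Motifs common to many promoters were also counted. SP1 (GGGCGG) was matched in 62.2%, beside 56.3%, the E-box (CACGTG) in 8.54%, beside 8.34%, and the TATA motif (TATAAA) in 8.54%, beside 9.46%. An NRF1 run that reads alike on both strands, as in SDHD, matches on each strand and was counted 1 time per promoter, and no motif searched contains another. A match is a stretch of letters and not a bound site.

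The motifs were also counted by whether the promoter bore Pol II. Among the 55 promoters with Pol II of both lists, ETS was matched in 20%, beside 9.78% of 8648 such promoters of all coding genes, and in 1 of the 27 without it (3.7%). NRF1 was matched in 25.5% of the 55, beside 15.2%, and in 33.3% of the 27. YY1 was matched in 12.7%, beside 4.42%, and in 11.1% of the 27. No share over all coding promoters without Pol II was computed, so the values of the 27 have none beside them. ETS was also less frequent over all coding promoters (5.35%) than over those with Pol II (9.78%). For SP1 and TATA the order of the 2 sets turned within promoters with Pol II, at 63.6% beside 70.1% and 10.9% beside 5.35%. The median share of G and C bases was 60.2% over the 82 promoters and 62.3% over all coding promoters, and the median ratio of observed to expected CpG was 0.84 and 0.74.

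**Figure D5:**
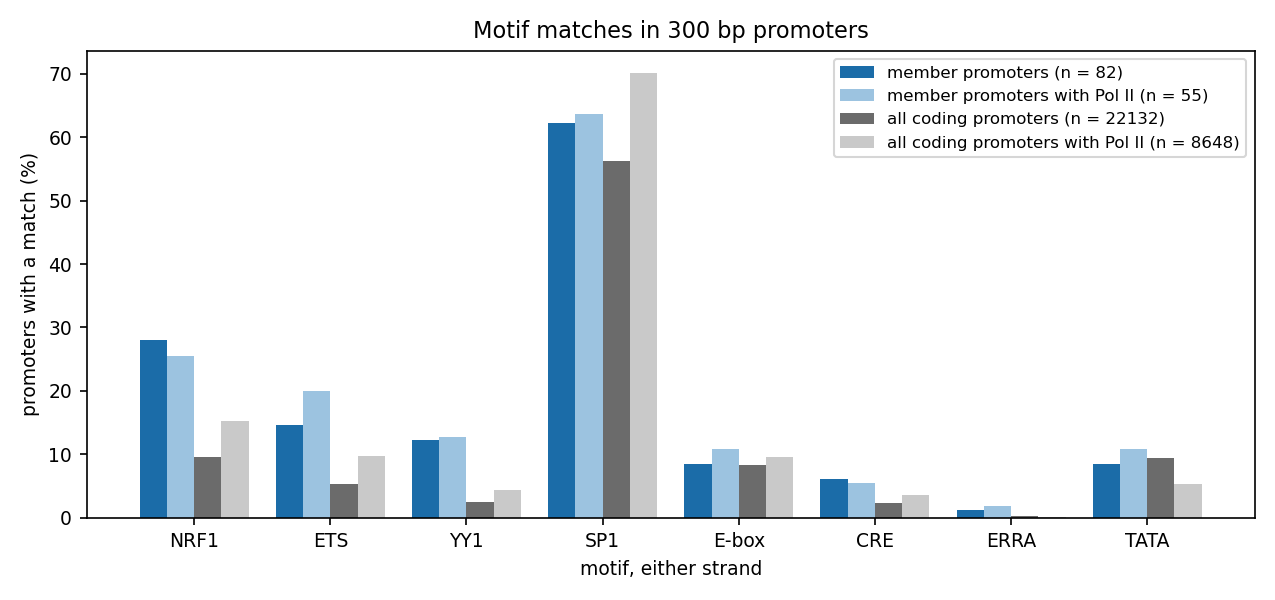
Share of 300 bp promoters (y axis, %) with at least 1 match to each motif on either strand, for promoters of oxidative phosphorylation genes and of all coding genes, each also for those with Pol II of both lists. NRF1 stands at 28% beside 9.66%, and SP1 at 62.2% beside 56.3%.

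The printed stretches, which are shorter than the promoters searched, show how these matches fall. The NDUFB4 stretch holds 2 of the 4 NRF1 matches of its promoter, and that of SDHD holds NRF1, ETS and ERRA matches. At ATP5PF the outer stretch has NRF1 and YY1 matches and the inner one has SP1 and ETS matches. The 2 promoters searched overlap, and the YY1 site was matched in both, outside the inner stretch. The neighbour GABPA, which begins between the 2 starts, had folds of 8.64 and 8.40, read from the same peak. In the stretch printed, UQCRC2 shows a TATA match alone, and neither COX7A2 start shows any of the 8 motifs.

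Other genes of the pathway were counted by the same rule. Of 53 assembly factors, which build the complexes and insert their cofactors, 37 bore Pol II (69.8%, beside 39.4%), with 12 of 14 for complex I, 2 of 4 for complex II, 6 of 9 for complex III, 16 of 22 for complex IV and 1 of 4 for complex V. SDHAF2, which attaches flavin to SDHA, had folds of 14.5 and 9.44. TIMMDC1, a complex I factor, had 7.03 and 9.14, and SCO1, a copper chaperone of complex IV, 8.60 and 7.86. SDHAF1, COA3, COA7 and TMEM70 had a peak of neither list. Of 7 subunits and partners outside the naming rule 6 bore Pol II (85.7%, beside 39.4%), with CYCS (cytochrome c) at 6.42 and 6.02.

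Of 12 regulators of mitochondrial biogenesis 7 bore Pol II (58.3%, beside 39.4% of all coding genes). TFAM, which packs mitochondrial DNA, had folds of 6.26 and 5.84. ESRRA, the gene of ERRA, had 5.99 and 5.93, and YY1 had 5.90 and 3.58. The coactivator genes PPARGC1A and PPARGC1B and the mitochondrial RNA polymerase gene POLRMT had a peak of neither list, and PPRC1 and NRF1 had one in list 2 alone, at 5.62 and 4.23. H3K4me1 was within 5 kb of an end at all 72 genes of these lists, beside 78.7% of all coding genes. COXFA4, formerly NDUFA4, had Pol II folds of 11.7 and 11.6, while its hypoxia-induced relative COXFA4L2 had a peak of neither list.

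Beside other large sets of housekeeping complexes, the share of 65.1% was near that of mitochondrial ribosomal proteins, where 50 of 77 genes bore Pol II (64.9%). It was lower than that of genes named like cytosolic ribosomal proteins, at 87 of 99 (87.9%), and like proteasome subunits, at 33 of 40 (82.5%). These sets were chosen by how the gene symbol begins, and genes with longer symbols that encode other proteins were not taken out. These are counts side by side, and the differences were not tested.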

How the data were processed

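CUT&Tag libraries for Pol II (6) and H3K4me1 (4) were merged by the authors into 4 peak lists of 10 columns, per the labels and the deposited files. The submitters' processing notes name BWA, SICER, deepTools and the build hg38, without roles or versions; the peak caller, its settings and any control are not stated in those sources. The deposited score equals 10 times the deposited −log10 q in at least 99.9% of peaks of each list, and the ratio deposited by the authors was read as fold enrichment. No −log10 q deposited by the authors was below 1.00. No read counts were used, so depth is unknown and limits each call to an unknown degree.

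Python 3.11.15 with numpy 2.4.6, pandas 2.3.3 and matplotlib 3.10.9 was used. Gene ends, symbols and promoters came from RefSeq tables of GRCh38.p14, and strand only from the promoter table. Peaks on chromosomes 1 to 22 and X were compared with ends at 1 kb (Pol II) and 5 kb (H3K4me1), and distances were checked on simulated peaks. All results are descriptions, and counts of calls over groups are set beside the share over all coding genes, except where it is stated that none was computed.

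Named with values were, in each complex, the 5 members with Pol II and the highest mean percentile, members with a peak of 1 list or none, isoform sets, and up to 6 with a near neighbour. Members, lists and rules were chosen with earlier results of these data known. Pigment epithelium genes, inner starts and the genes named from the pathway lists were picked after the data were seen. 1 member is counted but not reported singly here. Alternatives were other windows, stronger peaks, 1 list and listed starts.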

Additional observations from a re-analysis of the deposited data

How the results depend on the processing

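Of 45 alternatives over 9 results, 44 left the count within 1.5 times or the median within the spread between lists (SD 6.5). That SD came from the medians of list 1 and list 2, so the medians by single list were almost bound to fall within it. The alternative outside these limits was the count of genes with Pol II when each summit had to be at least as near to an end of the gene model as to any other gene end. It fell from 56 to 33. By that rule no share over all coding genes was computed, so whether the higher share of these genes holds under it was not tested. Windows of 500 bp and 2 kb gave 56 and 60 genes (34.5% and 44.6% of all coding genes), peaks at or above the list median 40 (27%), listed starts 49 of 69 (42.2%), and leaving out the readthrough genes 54 of 84 (39.4%). Leaving out 1 Pol II list gave 60 to 66 genes, beside 43.7% and 47.4% of all coding genes. By complex, leaving out 1 list gave 28 for complex I in either case, 3 to 4 for complex II, 6 to 8 for complex III, 9 for complex IV in either case and 14 to 17 for complex V. H3K4me1 was near 82 genes whichever list was left out (79.7% and 81.6%), 73 and 83 at 1 kb and 10 kb (63.9% and 83.4%), and 57 with peaks at or above the median (56.2% of all coding genes). Both targets were at 55 genes with H3K4me1 within 1 kb (37.2%), at 59 with the lists labelled R1 (43.1%) and at 66 with those labelled R2 (46.5%). The median percentile was 64.5 to 73.7 by single list and 70.8 by fold, where all coding genes with Pol II had 64.8 by fold. An end or a listed start, and leaving out the readthrough genes, were added after seeing the data. No paired analysis was possible because no result came from a test. Weak peaks are limited by a depth that is unknown.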

Other observations

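Processed and duplicated copies of these genes are common in the genome. Of 200 annotated pseudogenes named after the 86 genes, 12 bore Pol II by the rule used for the genes (6%), beside 3.69% of all 16664 pseudogenes. NDUFB4P4 had folds of 10.8 and 7.45, NDUFS5P3 10.1 and 7.92, and COX6CP5 9.93 and 6.71. Their summits were 862, 646 and 68 bp from an end in list 1. SDHAP1 and SDHAP4, copies of SDHA, had 6.97 and 4.76, and 4.87 and 4.28. COX6B1P5 lies inside POLN and HAUS3. Whether reads that fit both a gene and its copy bear on these values was not tested.

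The mitochondrial genome, which encodes further subunits of complexes I, III, IV and V, held 11 and 6 Pol II peaks and 6 and 5 H3K4me1 peaks. Their folds ran from 1.46 to 3.45 and from 1.33 to 2.98 for Pol II and from 1.16 to 2.54 and from 1.14 to 2.40 for H3K4me1. The strongest peak of each list reached into the stretch from base 14989 to base 16475. Mitochondrial DNA carries no histones and is transcribed by another polymerase, and both targets gave peaks there.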
